A study of Homo sapiens with 6 samples.

Results

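YAP1, WWTR1 and TEAD1, their target genes CCN1, CCN2, ANKRD1 and F3, and the pathway genes AMOTL2, LATS2 and AJUBA were followed in MDA-MB-231 cells, an invasive human breast cancer line that lacks hormone receptors. They were picked out by symbol as genes of the YAP and TEAD pathway, and all 10 were found among the 17088 genes of the deposited table. The VecRPPH1 group held 3 libraries of cells that overexpress RPPH1, the noncoding RNA of the tRNA-trimming enzyme RNase P. The VecNC group held 3 libraries of control cells of the same line, with the treatment given as NC. RPPH1 itself was not analysed here, so these data hold no check of the overexpression. The labels describe neither the construct nor whether the cells came from 1 clone, and they do not say whether replicates were separate cultures. The p-values below therefore reflect no more than library-to-library spread, and this may be technical.

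YAP and TAZ, the proteins of YAP1 and WWTR1, are coactivators that cannot bind DNA themselves and act in the nucleus through TEAD factors. The Hippo kinases LATS1 and LATS2 phosphorylate them and hold them in the cytoplasm, and cell contact, matrix stiffness and serum act on this switch. The control is largely on the proteins, so RNA levels of the coactivators do not measure their activity, whereas RNA of the targets is commonly used as its readout. MDA-MB-231 cells are known for high YAP activity and carry an inactivating mutation of NF2, an upstream activator of the kinases.

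Sequencing depth was even, with totals of 17603126 to 18817269 fragments per library recovered from the deposited FPKM values, which are fragments scaled to gene length and library total. Each member had between 862 and 21785 fragments in a library. The lowest was LATS2, with a counting error of 3.27% per library, and the highest was CCN1, with 0.723%. VecNC replicate 1 stood apart on the first principal component of the tested genes, at -10.9 against -0.107 to 4.4 for the other libraries. The markers of the line were present, with VIM at 2599 ± 21.9 FPKM in VecRPPH1 cells and 2699 ± 38.3 FPKM in VecNC cells (means with SD here and below, 3 libraries in each group). Of 8 genes listed as high in this line, SPARC was low, at 1.35 ± 0.332 and 0.895 ± 0.0866 FPKM, and of 7 listed as low and in the table, KRT8 and KRT18 were above 100 FPKM. EPCAM, also listed as low, was at 6.71 ± 0.560 and 6.86 ± 0.327 FPKM in VecRPPH1 and VecNC cells. CLDN3 was at 0.130 ± 0.114 and 0.255 ± 0.114 FPKM, and ESR1, CDH1 and GRHL2 were at or near 0. Summed leukocyte markers (4 genes in the table) lay at 3.22 to 3.98 FPKM in VecRPPH1 libraries and 2.23 to 3.74 FPKM in VecNC libraries, most of it CD14, at 3.23 ± 0.204 and 2.30 ± 0.241 FPKM. Endothelial markers (4 genes) summed to 1.98 to 2.40 FPKM in VecRPPH1 libraries and 1.91 to 2.11 FPKM in VecNC libraries. Fibroblast markers (7 genes) summed to 5.14 to 6.55 and 5.02 to 5.41 FPKM. Among the endothelial markers, KDR passed the filter, at 1.32 to 1.51 FPKM in VecRPPH1 libraries and 1.33 to 1.49 FPKM in VecNC libraries. Among the fibroblast markers, COL1A1 passed it, at 3.48 to 4.22 and 3.64 to 4.09 FPKM. PTPRC, CD3E, CDH5 and VWF were near 0. The part of these marker genes in the results was not tested. In such bulk samples, fewer cells that express a gene and less RNA per cell cannot be told apart.

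No member differed between VecRPPH1 and VecNC cells at an adjusted p under 0.05. The differences that were seen were small, and the coactivator and TEAD1 genes had higher means in VecRPPH1 cells while the target genes were divided. By limma with Benjamini-Hochberg adjustment over the 10909 genes that reached 1 FPKM in 3 or more libraries, 0 of the 10 members passed, and all 10 had been tested. Among all tested genes a single gene passed, or 0.00917%. At an unadjusted p under 0.05, limma had 2 members, WWTR1 and TEAD1, beside 7.97% of all tested genes. Both were higher in VecRPPH1 cells, as were 4.29% of tested genes at that threshold, and 3.68% were lower. By limma-voom on recovered fragments, 0 members passed, beside 0.147% of all tested genes. At an unadjusted p under 0.05, voom had 4 members (WWTR1, TEAD1, CCN1 and F3), beside 8.66% of all tested genes. Means were higher in VecRPPH1 cells for 6 members and lower for 4. The median log2 fold change of the members was 0.03, beside 0.0046 for all tested genes, and the median size without sign was 0.07 beside 0.05. All fold changes are VecRPPH1 over VecNC on the log2(FPKM + 1) scale.

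**Figure D1:**
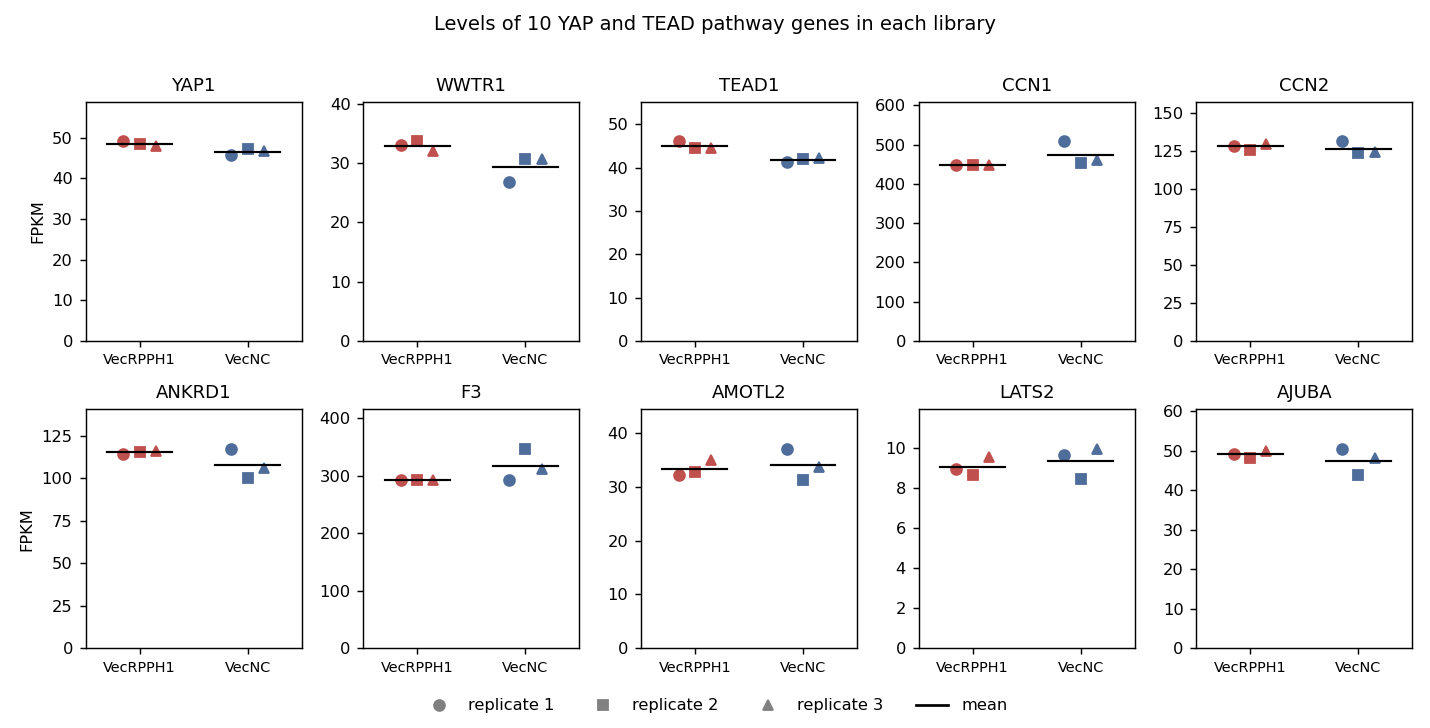
Level of each of the 10 genes in FPKM (vertical axis, from 0) in the 3 VecRPPH1 libraries (red, left) and the 3 VecNC libraries (blue, right), with the group mean as a line and the replicate number as the symbol. YAP1, WWTR1 and TEAD1 have every VecRPPH1 library above every VecNC library by a small margin, CCN1 has every VecRPPH1 library below, and the other 6 overlap.

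The coactivator genes and TEAD1 had non-overlapping groups with the higher values in VecRPPH1 cells. YAP1 lies on chromosome 11 (102110461 to 102233423, plus strand; GRCh38, GENCODE 29, as for all gene positions here). It was at 49.0, 48.4 and 48.0 FPKM in VecRPPH1 replicates 1, 2 and 3, against 45.8, 47.1 and 46.6 FPKM in VecNC replicates 1, 2 and 3. The groups did not overlap, but the gap between them was 0.921 FPKM. The log2 fold change of YAP1 was 0.06 with an SE of 0.036 (limma adjusted p 0.703), and its 95% interval ran from -0.02 to 0.14.

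WWTR1 encodes TAZ, the coactivator related to YAP, and lies on chromosome 3 (149517235 to 149736714, minus strand). It had 33.1, 33.6 and 32.0 FPKM in VecRPPH1 replicates 1 to 3, against 26.7, 30.7 and 30.6 FPKM in VecNC replicates 1 to 3. All VecRPPH1 libraries were above all VecNC libraries, and VecNC replicate 1 was the lowest of the 6 by a wide margin. The log2 fold change was 0.16 with an SE of 0.056 (limma adjusted p 0.527; 95% interval 0.04 to 0.29). Without VecNC replicate 1 it was 0.10 (adjusted p 0.558). Exons of WWTR1 share 795 bases with the antisense gene WWTR1-AS1, and 628 bases of YAP1 exons are shared with the antisense gene AP000942.2. The libraries were made with a stranded kit, but whether strand was used in counting is not given in the sources used here.

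TEAD1, the DNA-binding partner, lies on chromosome 11 (12674591 to 12944483, plus strand). It was at 46.1, 44.5 and 44.5 FPKM in VecRPPH1 replicates 1 to 3, against 41.3, 42.0 and 42.2 FPKM in VecNC replicates 1 to 3. The groups did not overlap and the gap of 2.26 FPKM exceeded the SD of either group. The log2 fold change was 0.10 with an SE of 0.037 (limma adjusted p 0.553; 95% interval 0.02 to 0.19). Among all tested genes, 870 or 7.98% had every VecRPPH1 library above every VecNC library, as YAP1, WWTR1 and TEAD1 did, and 641 or 5.88% had every VecRPPH1 library below. Leaving out any 1 library kept the log2 fold change of TEAD1 between 0.09 and 0.11 and that of YAP1 between 0.05 and 0.07.

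YAP1 RNA exceeded WWTR1 RNA per length by 1.47-fold in VecRPPH1 cells and 1.59-fold in VecNC cells, and TEAD1 was the most abundant of the TEAD genes. TEAD3 had 16.9 ± 0.685 FPKM in VecRPPH1 cells and 16.9 ± 0.561 FPKM in VecNC cells, and TEAD1 was 2.67-fold and 2.47-fold above it. TEAD4 was at 15.4 ± 0.932 and 15.1 ± 0.572 FPKM, and TEAD2 at 7.19 ± 0.256 and 7.16 ± 0.445 FPKM. Each of these TEAD genes had groups that overlapped, with log2 fold changes of -0.0054 for TEAD3, 0.03 for TEAD4 and 0.0073 for TEAD2 and limma adjusted p-values of 0.983, 0.935 and 0.981. The 95% intervals were -0.11 to 0.10 for TEAD3, -0.10 to 0.15 for TEAD4 and -0.12 to 0.14 for TEAD2. VGLL4, a cofactor that competes with YAP for TEAD factors, was at 13.2 ± 0.591 and 13.1 ± 0.396 FPKM, and VGLL2 was listed at 0 in all libraries. Of the 7 TEAD and VGLL genes set beside TEAD1, 5 were tested, 4 with higher and 1 with lower means, and 0 passed by limma or by voom, with 0 at an unadjusted p under 0.05 by limma.

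The windows around the starts of the members were searched for letters that TEAD factors recognise. GGAATG is the core of the sites that TEAD factors recognise, and TGACTCA is the site of AP-1, which often acts beside them. Of the 10 members, 8 matched an entry of the RefSeq promoter table (all but TEAD1 and CCN1; GRCh38.p14), with 11 annotated starts in all, and each window ran from 250 bases before the start to 50 after it. GGAATG, searched on both strands, stood in 6 of the 11 windows, each of another member, and in 14.0% of the 35116 promoter windows of the table. The members were picked as genes of this pathway, so the motif counts here are a description and no test. CCN2 had 3 copies in 1 window, where 0.128% of all windows had 3 or more, and ANKRD1 had 2, where 1.37% had 2 or more. TGACTCA stood in the window of 1 member, F3, and in 4.95% of all windows, and no window of a member held both motifs. The 250 bases before the CCN2 start are shown because they hold all 3 of its copies, and shorter windows are shown around the copies in ANKRD1, AMOTL2, AJUBA and YAP1 and around the AP-1 letters in F3. All read 5′ to 3′ along the gene, with the motif in capitals (CATTCC and TGAGTCA are GGAATG and TGACTCA on the other strand).
CCN2, chr6:131951373-131951622, minus strand: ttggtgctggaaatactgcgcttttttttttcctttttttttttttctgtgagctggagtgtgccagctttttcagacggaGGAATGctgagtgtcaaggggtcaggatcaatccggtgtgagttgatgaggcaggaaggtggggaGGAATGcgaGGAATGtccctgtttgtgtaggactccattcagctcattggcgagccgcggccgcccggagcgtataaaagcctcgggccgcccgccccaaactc
ANKRD1, chr10:90921291-90921319, minus strand: atcaccaccaaaGGAATGgccctctcaca
ANKRD1, chr10:90921199-90921227, minus strand: gacactgagtctGGAATGaaaattcacct
AMOTL2, chr3:134374500-134374528, minus strand: ctgaaactctcaCATTCCtggcatagcag
AJUBA, chr14:22976885-22976913, minus strand: gggaagttggctGGAATGaagccaaagca
YAP1, chr11:102110273-102110301, plus strand: cgggagtgtgcaGGAATGtagcaacttgc
F3, chr1:94541952-94541981, minus strand: gaatcactggggTGAGTCAtcccttgcagg

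The copies in CCN2 began 169, 104 and 95 bases before the start, and those in ANKRD1 220 and 128 bases before it. In YAP1 the copy began 162 bases before the start. AMOTL2 and AJUBA have a pair of annotated starts each, and the copies lie before the second, at 69 and 59 bases. LATS2 had its copy 10 bases after the start. A match of letters is a description of the sequence and shows no binding in these cells. The pair of WWTR1 windows held neither motif.

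**Figure D2:**
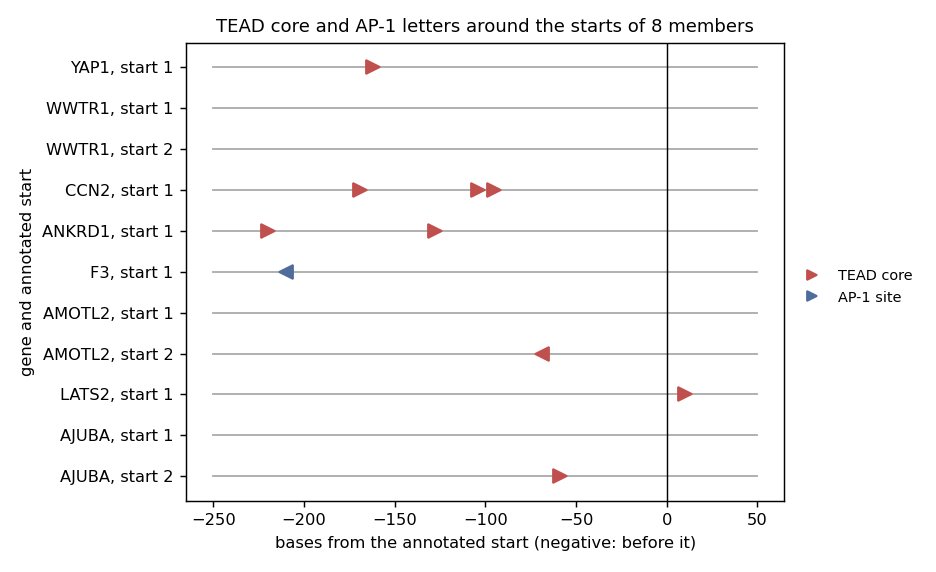
Position of GGAATG (red) and TGACTCA (blue) in bases from the annotated start for the 11 starts of 8 members, with arrowheads for the strand relative to the gene and grey lines for the window searched (250 bases before to 50 after). CCN2 has 3 TEAD cores and ANKRD1 has 2, all before the start, and F3 has the only AP-1 letters.

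The target genes CCN1, CCN2, ANKRD1 and F3 were the 4 most abundant members, and no direction was common to them. CCN1, which encodes a secreted matrix protein that binds integrins, lies on chromosome 1 (85580761 to 85583962, plus strand). It was at 447, 448 and 448 FPKM in VecRPPH1 replicates 1 to 3, against 508, 454 and 461 FPKM in VecNC replicates 1 to 3. Every VecRPPH1 library was below every VecNC library, and VecNC replicate 1 lay far above the other 5. The log2 fold change of CCN1 was -0.08 with an SE of 0.043 (limma adjusted p 0.674; 95% interval -0.18 to 0.02), and it was -0.03 without VecNC replicate 1. The VecRPPH1 libraries differed by an SD of 0.160% of their mean, below the counting error of 0.723% per library, so that SD understates the error of the group.

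CCN2, the closely related secreted protein also called connective tissue growth factor, lies on chromosome 6 (131948176 to 131951373, minus strand). Its 3 VecRPPH1 libraries had 128, 126 and 130 FPKM, against 131, 123 and 124 FPKM in the VecNC libraries. The groups overlapped, with VecNC replicate 1 the highest and VecNC replicate 2 the lowest of all. Its log2 fold change was 0.02 with an SE of 0.037 (limma adjusted p 0.931), and the 95% interval of -0.06 to 0.10 allows a change of -4.4% to 7.28% on the FPKM + 1 scale. CCN1 was 3.50-fold above CCN2 per length in VecRPPH1 cells and 3.75-fold above it in VecNC cells. CCN2 exons share 195 bases with the antisense gene AL133346.1.

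ANKRD1, an ankyrin repeat protein best known from muscle and a widely used YAP target, lies on chromosome 10 (90912096 to 90921276, minus strand). It had 114, 115 and 116 FPKM in VecRPPH1 replicates 1 to 3, against 117, 99.9 and 106 FPKM in VecNC replicates 1 to 3. VecNC replicate 1 exceeded all VecRPPH1 libraries while the other VecNC libraries lay below them. Its log2 fold change was 0.10 with an SE of 0.053 (limma adjusted p 0.68; 95% interval -0.02 to 0.22). It was 0.16 without VecNC replicate 1 (adjusted p 0.288) and 0.05 without VecNC replicate 2.

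F3 encodes tissue factor, the cell surface starter of blood clotting, and lies on chromosome 1 (94529225 to 94541800, minus strand). It was at 293, 292 and 293 FPKM in VecRPPH1 replicates 1 to 3, against 292, 346 and 312 FPKM in VecNC replicates 1 to 3. The groups overlapped only through VecNC replicate 1, which lay among the VecRPPH1 libraries. The log2 fold change was -0.11 with an SE of 0.054 (limma adjusted p 0.665; 95% interval -0.23 to 0.0098). It was -0.17 without VecNC replicate 1 (adjusted p 0.305) and -0.05 without VecNC replicate 2. The SD of the VecRPPH1 libraries, 0.180% of the mean, was again below the counting error, which was 0.886%.

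**Figure D3:**
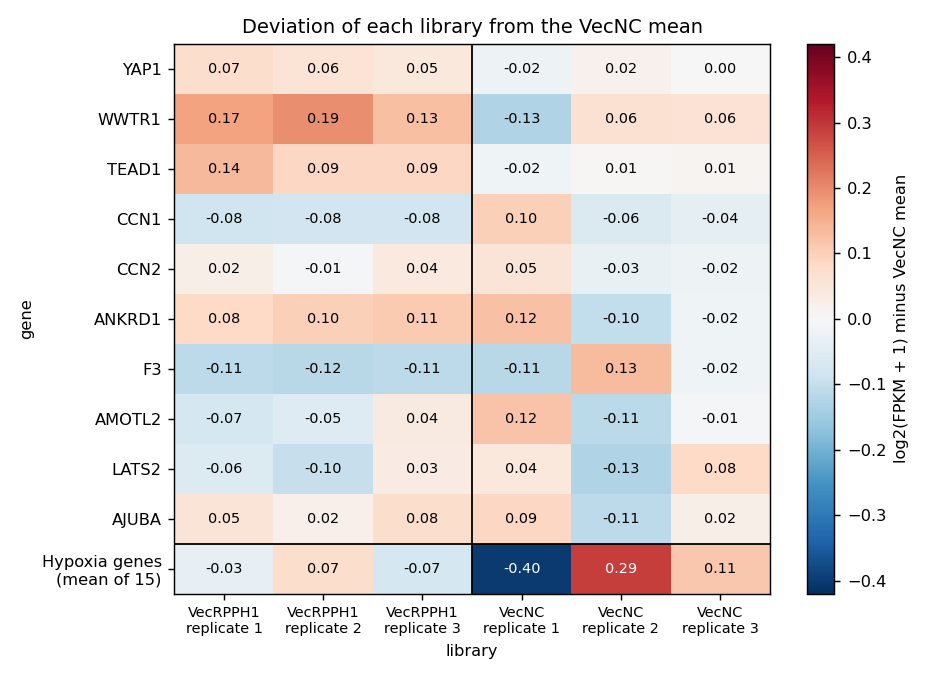
Difference of each library (columns, VecRPPH1 left of the line) from the VecNC mean in log2(FPKM + 1), for the 10 genes and, in the last line, for the mean of 15 hypoxia genes. The VecRPPH1 columns share a sign in 7 of the 10 genes (not in CCN2, AMOTL2 and LATS2), and VecNC replicates 1 and 2 deviate in opposite directions in all 10, with the hypoxia genes at -0.40 and 0.29 there. VecNC libraries are set against their own mean, so opposite signs among them are usual for any gene. Neither count was made over all tested genes.

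AMOTL2, LATS2 and AJUBA act on the pathway itself, and AMOTL2 and LATS2 are also targets of it. AMOTL2 is an angiomotin relative that binds YAP and holds it back, and lies on chromosome 3 (134355874 to 134375479, minus strand). It had 32.2, 32.6 and 34.9 FPKM in VecRPPH1 libraries, against 37.0, 31.3 and 33.7 FPKM in VecNC libraries. The groups overlapped fully, with a log2 fold change of -0.03 (SE 0.061, limma adjusted p 0.931), which was 0.03 without VecNC replicate 1. Its exons share 187 bases with the pseudogene RPL39P5 on the same strand.

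LATS2, a kinase that inhibits YAP and TAZ, lies on chromosome 13 (20973032 to 21061547, minus strand). It was at 8.93, 8.68 and 9.58 FPKM in VecRPPH1 libraries, against 9.66, 8.47 and 9.95 FPKM in VecNC libraries. It was the least abundant member, with a log2 fold change of -0.04 (SE 0.066, limma adjusted p 0.913; 95% interval -0.19 to 0.11). The change was 0.0017 without VecNC replicate 3 and -0.10 without VecNC replicate 2. LATS1, the related kinase, was at 6.45 ± 0.365 FPKM in VecRPPH1 cells and 6.26 ± 0.516 FPKM in VecNC cells (difference 0.04 on the log2 scale, limma adjusted p 0.916).

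AJUBA, a LIM domain protein that binds and restrains LATS kinases, lies on chromosome 14 (22971174 to 22982642, minus strand). It had 49.3, 48.2 and 50.1 FPKM in VecRPPH1 libraries, against 50.5, 43.9 and 48.3 FPKM in VecNC libraries. The lowest VecNC library stood below the other 5, and the groups overlapped. The log2 fold change was 0.05 (SE 0.052, limma adjusted p 0.845), and it was -0.0053 without VecNC replicate 2.

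**Figure D4:**
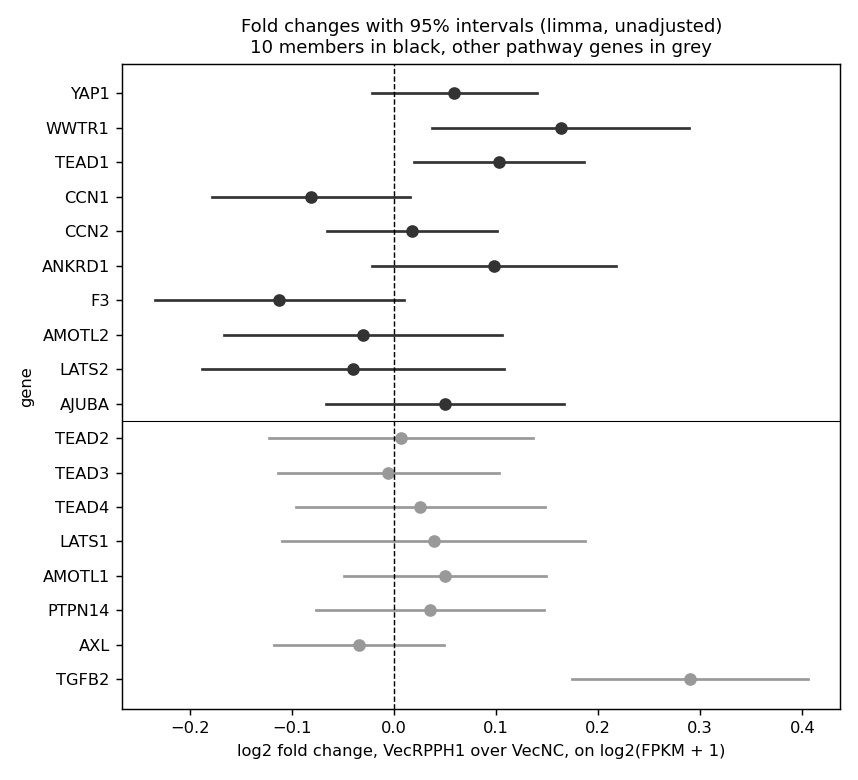
Log2 fold change of VecRPPH1 over VecNC (points, horizontal axis) with its 95% interval (lines, limma, unadjusted) for the 10 members in black and 8 other pathway genes in grey. The intervals of WWTR1 and TEAD1 among the members, and of TGFB2 among the others, lie above 0, and no gene shown passed adjustment over all tested genes by limma.

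By level, CCN1 led, followed by F3, CCN2, ANKRD1, AJUBA, YAP1, TEAD1, AMOTL2, WWTR1 and LATS2. CCN1 ranked 78th and F3 123rd by mean FPKM among the 10909 tested genes, and LATS2 ranked 6193rd. AJUBA and YAP1 had ranges over the 6 libraries that overlapped, as had YAP1 and TEAD1, and AMOTL2 and WWTR1. Neighbours elsewhere in this order did not overlap.

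The spread between libraries differed by group. The SD between libraries was larger in VecNC than in VecRPPH1 libraries for 9 of 10 members (all but TEAD1), where 57.9% of all tested genes had the larger SD in VecNC. The VecRPPH1 spread was below the counting error in 4 members, YAP1, CCN1, ANKRD1 and F3. In VecNC libraries that SD was 8.59 times the counting error for CCN1 and 9.80 times for F3, and 1.01 times for YAP1 and for TEAD1. The share of all tested genes with such spreads was not counted. Over all tested genes, chi-square per degree of freedom was 3.12 to 8.36 between VecNC pairs and 2.21 to 3.60 between VecRPPH1 pairs. Among the VecNC libraries, CCN1, CCN2, ANKRD1, AMOTL2 and AJUBA were all highest in replicate 1, middle in replicate 3 and lowest in replicate 2, an order found in 21.9% of tested genes. YAP1, WWTR1 and F3 had the reverse order, found in 19.1%. The hypoxia genes, which include NDRG1, moved with it: 14 of 15 tested were highest in VecNC replicate 2, middle in replicate 3 and lowest in replicate 1. Their mean was -0.07 to 0.07 from the VecNC mean in the VecRPPH1 libraries, against -0.40, 0.29 and 0.11 in VecNC replicates 1, 2 and 3. NDRG1, a hypoxia-induced gene, was at 151, 190 and 141 FPKM in VecRPPH1 replicates 1 to 3, against 103, 285 and 211 FPKM in VecNC replicates 1 to 3. The part of this difference in the members' values was not tested.

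The genes nearest in pattern are given by Pearson's r of log2(FPKM + 1) over the 6 libraries among 5895 tested genes with a mean of at least 10 FPKM. They describe these libraries, which share 2 groups and a common outlying library, and carry no p. CCN1 was most like FARSA (r = 0.992), IRAK1 (0.989) and GEMIN4 (0.987), which all peaked in VecNC replicate 1. CCN2 was most like MANBAL (0.996), SNW1 (0.993) and ARF6 (0.992). YAP1 was most like G3BP2 (0.996), GPRC5A (0.992) and SHCBP1 (0.989), all higher in each VecRPPH1 library than in any VecNC library.

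Of 28 Hippo kinases and upstream regulators, 26 were tested, 17 had higher and 9 lower means in VecRPPH1 cells, and 0 passed by limma or by voom (median log2 fold change 0.02). At an unadjusted p under 0.05, limma had 1 in each direction, where 4.29% of all tested genes were higher and 3.68% lower. DLG1, a polarity scaffold, was at 20.7 ± 0.230 FPKM in VecRPPH1 cells and 19.1 ± 0.384 FPKM in VecNC cells (difference 0.10 on the log2 scale, limma adjusted p 0.573). FRMD6, a membrane protein that works with NF2, was at 54.9 ± 1.21 and 60.5 ± 3.82 FPKM (difference -0.14 on the log2 scale, limma adjusted p 0.548). Without VecNC replicate 1 the FRMD6 difference was -0.085. The next by p were MOB1B, a cofactor of LATS kinases, at 10.96 ± 0.419 and 10.3 ± 0.427 FPKM, and SCRIB, another polarity scaffold, at 34.5 ± 1.42 and 37.1 ± 3.08 FPKM. The kinase STK4 was at 14.9 ± 0.60 and 14.1 ± 0.851 FPKM and its relative STK3 at 2.01 ± 0.0480 and 2.01 ± 0.106 FPKM. NF2 was low, at 1.73 ± 0.0439 FPKM in VecRPPH1 cells and 1.67 ± 0.185 FPKM in VecNC cells.

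Of 8 YAP and TAZ binding partners, 6 were tested, 5 with higher means, and 0 passed by limma or by voom (0 at an unadjusted p under 0.05 by limma). AMOT, the founding angiomotin, was under the filter in both groups, at 0.0677 ± 0.0133 FPKM in VecRPPH1 cells and 0.0685 ± 0.0432 FPKM in VecNC cells. Its relative AMOTL1 was at 14.1 ± 0.213 and 13.6 ± 0.333 FPKM with groups that did not overlap (difference 0.05 on the log2 scale, limma adjusted p 0.805). PTPN14, a phosphatase that binds YAP, was at 25.3 ± 0.466 and 24.7 ± 1.49 FPKM. YWHAZ, which encodes a 14-3-3 protein that retains phosphorylated YAP, was at 249 ± 4.53 and 241 ± 8.31 FPKM.

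The published 22-gene signature of YAP and TAZ activity, which includes CCN1, CCN2, ANKRD1, F3, AMOTL2 and LATS2, was tested in full. On the log2(FPKM + 1) scale, 11 genes had higher and 11 had lower means, and the median log2 fold change was -0.0027. DOCK5, which encodes a guanine nucleotide exchange factor and was named after its values were seen, counts as higher there although its mean FPKM was 12.6 in VecRPPH1 cells and 12.7 in VecNC cells. By limma 0 of 22 passed, and at an unadjusted p under 0.05 there were 2, both higher, beside 4.29% of all tested genes. By voom 1 of 22 passed, beside 0.147% of all tested genes (16 of 10909). It was TGFB2, which encodes a TGF-beta ligand, with a voom adjusted p of 0.0213, where the other alternatives gave 0.135 to 0.83. TGFB2 was at 11.8, 11.3 and 10.7 FPKM in VecRPPH1 replicates 1 to 3, against 8.94, 8.89 and 9.25 FPKM in VecNC replicates 1 to 3. Its groups did not overlap, and its log2 fold change by limma was 0.29 with an SE of 0.052 (limma adjusted p 0.182; 95% interval 0.17 to 0.41). ASAP1, a regulator of the cytoskeleton, was at 25.3 ± 0.199 FPKM in VecRPPH1 cells and 23.7 ± 0.666 FPKM in VecNC cells (difference 0.09 on the log2 scale, limma adjusted p 0.626). The receptor kinase gene AXL was at 199 ± 3.12 and 204 ± 7.80 FPKM (difference -0.03 on the log2 scale, limma adjusted p 0.85). Without VecNC replicate 1 that difference was -0.0041, and without VecNC replicate 2 it was -0.06.

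**Figure D5:**
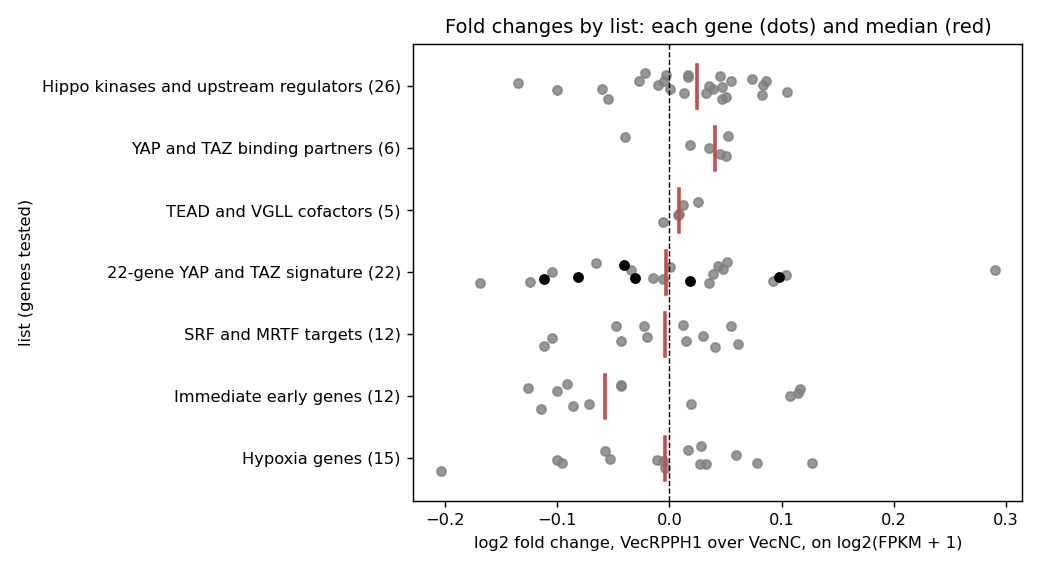
Log2 fold change of VecRPPH1 over VecNC (horizontal axis) for each tested gene of 7 lists, with members of the set described here in black, other genes in grey and the list median as a red bar. Medians lie between -0.06 and 0.04, and TGFB2 in the 22-gene signature is the point farthest to the right.

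Genes that answer to the cytoskeleton and to serum, many of them regulated beside YAP targets, were counted in the same way. Of 15 SRF and MRTF targets, 12 were tested, 6 with higher and 6 with lower means, and 0 passed by limma or by voom. At an unadjusted p under 0.05 by limma 2 were lower, beside 3.68% of all tested genes. They were FLNA, an actin crosslinker, at 412 ± 8.65 FPKM in VecRPPH1 cells and 443 ± 10.2 FPKM in VecNC cells (difference -0.10 on the log2 scale, limma adjusted p 0.467), and TPM1. The actin-binding tropomyosin gene TPM1 was at 17.1 ± 0.447 and 18.5 ± 0.489 FPKM (difference -0.11 on the log2 scale, limma adjusted p 0.573). VCL, which encodes the adhesion protein vinculin, was at 64.1 ± 1.85 and 61.4 ± 3.32 FPKM, and FHL2 at 6.50 ± 0.321 and 6.29 ± 0.181 FPKM. Of 15 immediate early genes, 12 were tested, 4 with higher and 8 with lower means (median log2 fold change -0.06), and 0 passed by limma or by voom. IER3 was at 638 ± 30.1 FPKM in VecRPPH1 cells and 696 ± 24.7 FPKM in VecNC cells (difference -0.13 on the log2 scale, limma adjusted p 0.507), and KLF6 at 62.7 ± 0.994 and 67.3 ± 3.27 FPKM; both had an unadjusted p under 0.05, beside 3.68% of all tested genes that were lower. EGR1 was at 9.56 ± 0.477 and 8.77 ± 0.820 FPKM and ATF3 at 2.60 ± 0.183 and 2.32 ± 0.169 FPKM. Of 16 hypoxia genes, 15 were tested, 7 with higher and 8 with lower means, and 0 passed by limma or by voom, with 0 at an unadjusted p under 0.05 by limma. SLC2A3, a glucose transporter gene, was at 15.6 ± 0.852 and 14.3 ± 2.16 FPKM in VecRPPH1 and VecNC cells, the histone demethylase gene KDM3A at 27.5 ± 0.969 and 26.2 ± 4.72 FPKM and ANKRD37 at 11.6 ± 1.05 and 12.9 ± 3.94 FPKM, all with groups that overlapped.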

How the data were processed

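The authors deposited FPKM values for 17088 genes, 1 column per library. The submitters' processing notes list Trimmomatic, HISAT2, Cufflinks and GRCh38, with no tool version, and the annotation release is not given in the sources used here. Testing was by limma (version 3.58.1, run under R 4.3.3), with a variance trend and group as its single term. It used log2(FPKM + 1) of genes that reached 1 FPKM in 3 or more libraries. The Benjamini-Hochberg adjustment covered 10909 genes, and the threshold was 0.05. An exact permutation of 3 against 3 libraries cannot go below 0.1. Whole fragments were recovered for 100% of tested genes (tolerance 0.01 fragments plus a relative 3e-08), and limma-voom was run on them. Both steps were tried on simulated data with the same noise in every library. Those data hold no outlying library such as VecNC replicate 1, and their outcome is not given here. Members were found by symbol, with no measured value in the rule, but they and the gene lists were chosen with earlier results of these data known. Named list genes were the 2 with the smallest p per direction and list, plus genes chosen by role; 1 of these is not reported here. SPARC, KRT8, KRT18, CD14, EPCAM, CLDN3, KDR and COL1A1 were named after their values were seen. For EPCAM, CLDN3, KDR and COL1A1 no refits are given. Replicate pairs differed beyond counting noise (chi-square per degree of freedom 2.21 to 8.36), so each library counted as 1 sample. Gene positions are from GENCODE 29 and promoter sequences from RefSeq on GRCh38.p14; protein sequences were not used here. Alternatives were another pseudocount, other filters, a replicate block, median-of-ratios scaling, voom and leaving out each library. Counting errors cover sampling of fragments only.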

Additional observations from a re-analysis of the deposited data

How the results depend on the processing

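No member passed under any of the 12 alternatives, and the lowest adjusted p of a member was 0.275 (WWTR1 by voom). Of 120 refitted member fold changes 117 kept their direction. The other filters and the replicate block leave a member's fold change as it was, so those refits could not change its direction. With 1 library left out at a time, AMOTL2 ran from -0.086 to 0.030, LATS2 from -0.10 to 0.0017 and AJUBA from -0.0053 to 0.094. WWTR1 ran from 0.10 to 0.20, CCN1 from -0.11 to -0.03, F3 from -0.17 to -0.05, ANKRD1 from 0.05 to 0.16 and CCN2 from 0.0018 to 0.05. Among other named genes, ranges that crossed 0 were those of TEAD3 (-0.034 to 0.020), TEAD4 (-0.018 to 0.063), VGLL4 (-0.021 to 0.034), NDRG1 (-0.62 to 0.11), ANKRD37 (-0.36 to 0.050), KDM3A (-0.064 to 0.19), TEAD2 (-0.023 to 0.051), LATS1 (-0.0013 to 0.097), STK3 (-0.026 to 0.024), NF2 (-0.012 to 0.088), PTPN14 (-0.0080 to 0.076) and KRT8 (-0.020 to 0.044). Without VecNC replicate 1, values nearer 0 by over 1.5 times came from SCRIB (-0.036), STK4 (0.026), VCL (0.017), YWHAZ (0.029) and SLC2A3 (0.0079). Likewise EGR1 was 0.043 and AMOTL1 0.032 without VecNC replicate 3, and KRT18 was 0.023 without VecNC replicate 2. FHL2 was 0.018 without VecRPPH1 replicate 3 and 0.024 without VecNC replicate 2. MOB1B was 0.055 without VecRPPH1 replicate 1. With at least 5 FPKM in 3 libraries, ATF3, CD14, NF2 and STK3 were not tested.

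The 1 gene called over all tested genes, lower in VecRPPH1 cells, became 0 with no filter on low values (1225 genes at an unadjusted p under 0.05) and 0 with the replicate block (735 genes at an unadjusted p under 0.05). It became 8 (2 higher, 6 lower) with at least 5 FPKM, and 16 (6 higher, 10 lower) by voom. Leaving out 1 library gave 0 to 7, all lower, with 7 without VecNC replicate 1. The cause was not tested. Voom called 1 gene of the 22-gene signature, beside 0.147% of all tested genes, and limma called 0, beside 0.00917%. The replicate numbers share only a number: deviations of same-numbered libraries correlated at 0.0566, 0.018 and -0.104, libraries did not correlate best with their own number in every case, and the block gave WWTR1 an adjusted p of 0.647. Median-of-ratios scaling moved the median of all genes from 0.0046 to -0.00095 and turned no member. Every member was detected in every library, with 862 fragments or more. For LATS2 the counting error was 3.27% per library, and its difference of group means was -3.16%. The counting error of a difference between means of 3 libraries is smaller than that of 1 library. The part of depth in the members' differences was not tested.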
